A study of Arabidopsis thaliana with 18 samples.

Results

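The fatty acid desaturases described here are 8 nuclear genes of Arabidopsis, defined by gene identifier: SSI2 (AT2G43710), FAD2 (AT3G12120), FAD3 (AT2G29980), FAD4 (AT4G27030), FAD5 (AT3G15850), FAD6 (AT4G30950), FAD7 (AT3G11170) and FAD8 (AT5G05580). All 8 were among the 33331 genes listed in the deposited table, and all 8 passed the filter on low values that left 19303 genes for testing. The study examined targets of AtGRP7, an RNA-binding protein under control of the circadian clock, and FAD2 was among the transcripts it followed singly. Polyadenylated RNA of aerial tissue was sequenced from 3 lines at 2 times, 18 samples in 6 groups of 3 biological replicates, each made from pooled plants. The values used here come from wild type plants (Col-2, wt) harvested after 36 h of continuous light (LL36, 3 libraries) or after 24 h (LL24, 3 libraries). Both groups had grown for 16 days in cycles of 12 h light and 12 h dark before the shift to continuous light, so that LL36 falls at subjective dusk and LL24 at subjective dawn. The LL36 plants had also spent longer in continuous light, and with these groups the time of day and the time in light cannot be told apart. The columns of the lines AtGRP7-ox and grp7-1 8i could not be matched to labels, and these lines were not analysed here.

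Desaturases place double bonds into fatty acids and so set how fluid a membrane is. Plants make saturated fatty acids in the plastid, where the soluble enzyme SSI2 introduces the first double bond while the chain is still bound to acyl carrier protein (ACP), giving oleate. The later steps act on fatty acids already built into membrane lipids and run in parallel in 2 compartments. In the endoplasmic reticulum (ER), FAD2 turns oleate into linoleate and FAD3 turns linoleate into linolenate. In the plastid, FAD6 catalyses the first of these steps, and FAD7 and FAD8 the second. FAD5 desaturates palmitate on the galactolipid monogalactosyldiacylglycerol, and FAD4 places a trans double bond in palmitate on phosphatidylglycerol. Thylakoid membranes are rich in the trienoic fatty acids that the plastid enzymes make.

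FAD7 and FAD8 are close copies, and the first question for their values is whether reads could be told apart between them. Their RefSeq coding sequences (TAIR10.1 annotation; FAD7 on chromosome 3, 1341 bases; FAD8 on chromosome 5, 1308 bases) were identical at 85.3% of 1290 aligned bases. The longest run of identical bases between them was 87, shorter than the 100 bases of a full read, but reads trimmed to this length or less could match both. FAD3, the ER enzyme of the same reaction, shared 70.6% of aligned bases with FAD7 and 70.7% with FAD8, and the remaining pairs of members had 61.3% to 66.3% identity. No 100-base window of coding sequence was thus shared between members.

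Levels were in TPM, the share of a library corrected for transcript length, so that levels of different genes can be set side by side. TPM keep no sequencing depth, and the depth behind the values is not known here. The 6 libraries summed to between 990489 and 992864 TPM. The 100 most abundant genes took 24.3% to 25.2% of this sum at LL36, against 30.2% to 30.7% at LL24. Over all tested genes the log2 change, LL36 minus LL24, had a median of 0.21. For this reason the changes below are also given relative to that median, and after median-of-ratios scaling or quantile normalization, which brought it to 0.01 and 0.04. The leaf transcripts RBCS1A, CAB1 and RCA summed to 29194 to 31703 TPM at LL36 and to 42757 to 44700 TPM at LL24, whereas 5 root, 2 seed and 3 flower marker genes summed to at most 5.13, 1.94 and 1.27 TPM at LL36 and 11.6, 1.93 and 1.11 TPM at LL24. In bulk tissue, fewer cells of a type and less RNA per cell cannot be told apart. The sum of 7 transcripts that react to handling and cold ranged from 150 to 273 TPM at LL36 and from 266 to 408 TPM at LL24, and the part of these differences in the results was not tested.

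At LL36 the ER desaturase transcripts were higher than at LL24, and most plastid desaturase transcripts were lower. FAD2 and FAD3 rose (1.66-fold and 1.37-fold), whereas FAD4, FAD5, SSI2 and FAD6 fell to 0.328, 0.558, 0.608 and 0.773 of their LL24 means. FAD7 and FAD8 did not pass the test. The 3 leaf transcripts of photosynthesis given above were called lower as well, as deposited and under median-of-ratios scaling. Under quantile normalization, which sets values by rank, RCA was called lower, CAB1 higher and RBCS1A neither. There RBCS1A changed by 0, and CAB1 by 0.39 although its mean was 8975 TPM at LL36 and 11660 TPM at LL24. For such abundant transcripts this normalization cannot show a change in level that leaves the rank the same. Among the desaturases, 2 of 8 members were called higher and 4 lower by limma at a Benjamini-Hochberg adjusted p below 0.05, against 41.2% and 11.2% of all tested genes (52.4% in either direction). The libraries of the groups did not overlap for 6 of 8 members, against 63.8% of tested genes. The median change of the 8 members was -0.28, against 0.21 over all tested genes. FAD2 higher and FAD4, FAD5, FAD6 and SSI2 lower were the 5 calls that held under all 3 scalings. The share of all tested genes called under all 3 scalings was not determined, so this count has no background to compare with. Under median-of-ratios scaling 1 member was called higher and 6 lower (all genes: 15.8% and 18.5%), and under quantile normalization 2 higher and 5 lower (18.7% and 15.7%).

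**Figure D1:**
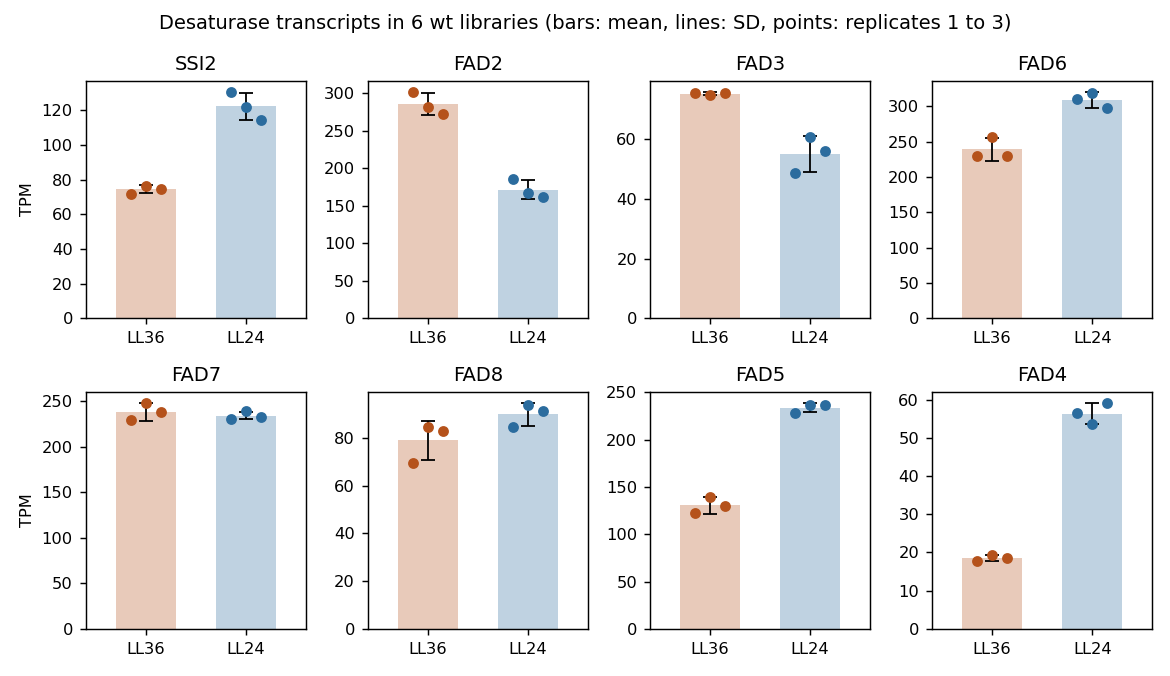
TPM (vertical axes, each starting at 0) of the 8 desaturase transcripts in the wt libraries at LL36 (left) and LL24 (right). Bars are means, lines SD and points the 3 replicates in order. FAD2 and FAD3 stand higher at LL36, FAD4, FAD5, FAD6 and SSI2 stand lower, and the points of FAD7 and FAD8 overlap between the times.

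SSI2, the entry enzyme of the pathway, had 71.9, 76.4 and 74.9 TPM in replicates 1, 2 and 3 at LL36, against 130, 122 and 115 TPM at LL24. Every LL36 library was below every LL24 library. The means were 74.4 ± 2.33 TPM at LL36 and 122 ± 7.93 TPM at LL24 (SD, n = 3 each), a log2 change of -0.71 (SE 0.06, limma adjusted p = 0.000259) and of -0.92 relative to the median of all genes.

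FAD2, which makes the linoleate of the ER, was measured at 301, 282 and 272 TPM at LL36, against 186, 167 and 161 TPM at LL24. Every LL36 library was above every LL24 library. Mean levels were 285 ± 14.7 TPM at LL36 and 171 ± 12.7 TPM at LL24 (SD, n = 3 each). The log2 change was 0.73 (SE 0.07, 95% interval 0.56 to 0.90, adjusted p = 0.00038), or 0.52 relative to the median. FAD2 thereby ranked at percentile 91.6 of the changes of all tested genes.

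FAD3, which takes the linoleate of FAD2 further to linolenate, had 75.6, 74.7 and 75.4 TPM at LL36, against 48.6, 60.6 and 56.1 TPM at LL24. The LL36 libraries were nearly alike, and the spread lay among the LL24 libraries. FAD3 averaged 75.2 ± 0.458 TPM at LL36 and 55.1 ± 6.11 TPM at LL24 (SD, n = 3 each). Its log2 change of 0.45 (SE 0.08, adjusted p = 0.00543) was 0.24 relative to the median. Under median-of-ratios scaling the change of FAD3 was 0.24 and the call was lost (adjusted p = 0.0583).

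FAD6, the plastid counterpart of FAD2, had 229, 257 and 230 TPM at LL36, against 311, 319 and 298 TPM at LL24. All LL36 libraries were below the LL24 libraries, the opposite order to that of FAD2. FAD6 averaged 239 ± 15.8 TPM at LL36 and 309 ± 10.8 TPM at LL24 (SD, n = 3 each), a log2 change of -0.37 (SE 0.06, adjusted p = 0.00347) and of -0.58 relative to the median.

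FAD7, the plastid counterpart of FAD3, had 229, 248 and 237 TPM at LL36, against 231, 239 and 232 TPM at LL24. The ranges overlapped, and replicate 2 was the highest at both times. The log2 change was 0.02 (95% interval -0.09 to 0.14, adjusted p = 0.700). The sign of this value depended on the scaling, since the change was -0.19 relative to the median and -0.19 under median-of-ratios scaling, where FAD7 was called lower (adjusted p = 0.0204), and -0.08 under quantile normalization (adjusted p = 0.266).

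FAD8, the second plastid linoleate desaturase, known from plants grown at low temperature, had 69.5, 84.4 and 82.7 TPM at LL36, against 84.3, 93.5 and 91.4 TPM at LL24. Replicate 1 was the lowest library at both times, and only LL36 replicate 2 reached the range of LL24. FAD8 averaged 78.9 ± 8.14 TPM at LL36 and 89.7 ± 4.79 TPM at LL24 (SD, n = 3 each). The log2 change of -0.19 (95% interval -0.40 to 0.02) did not pass the test (adjusted p = 0.113). It was called lower under median-of-ratios scaling (-0.40, adjusted p = 0.0112) and under quantile normalization (-0.31, adjusted p = 0.0333). A stretch of FAD8 transcripts, 7.57% of its 100-base windows, is also found on the opposite strand in PAI1, and the library kit does not mark strand. PAI1 was lower in level than FAD8, with 24.4 ± 1.62 TPM at LL36 and 19.7 ± 1.28 TPM at LL24, and was called higher for TPM as deposited but not under the other scalings. PAI2, whose gene model overlaps that of FAD8, had 17.9 ± 1.27 TPM at LL36 and 10.6 ± 1.05 TPM at LL24 and was called higher under all 3 scalings (log2 change 0.74 as deposited, adjusted p = 0.000976), while FAD8 had the lower mean at LL36.

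FAD5, which desaturates palmitate on the main galactolipid of thylakoids, had 122, 139 and 129 TPM at LL36, against 228, 236 and 237 TPM at LL24. The LL36 libraries lay far below those of LL24. FAD5 averaged 130 ± 8.56 TPM at LL36 and 234 ± 4.74 TPM at LL24 (SD, n = 3 each), a log2 change of -0.84 (SE 0.06, adjusted p = 0.000104) and of -1.05 relative to the median.

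FAD4, whose product is the trans-unsaturated palmitate of phosphatidylglycerol, had the largest change of the 8. It had 17.8, 19.2 and 18.5 TPM at LL36, against 56.5, 53.5 and 59.0 TPM at LL24. FAD4 averaged 18.5 ± 0.732 TPM at LL36 and 56.3 ± 2.78 TPM at LL24 (SD, n = 3 each). The log2 change was -1.58 (SE 0.06, 95% interval -1.73 to -1.44, adjusted p = 7.44e-06), or -1.79 relative to the median. Only 1.55% of the tested genes had a change as low or lower. FAD4 and FAD5 were called with a fall of more than 1 relative to the median, as were 4.46% of tested genes. Of the 100-base windows of FAD4, 8.28% are shared with VPS22 on the opposite strand, a gene that was higher at LL36 (32.1 ± 1.20 TPM) than at LL24 (23.9 ± 1.94 TPM), the opposite direction to FAD4. VPS22 was called higher as deposited and under quantile normalization, but not under median-of-ratios scaling (log2 change 0.21, adjusted p = 0.0685). The members other than FAD4 and FAD8 shared no window with another gene.

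**Figure D2:**
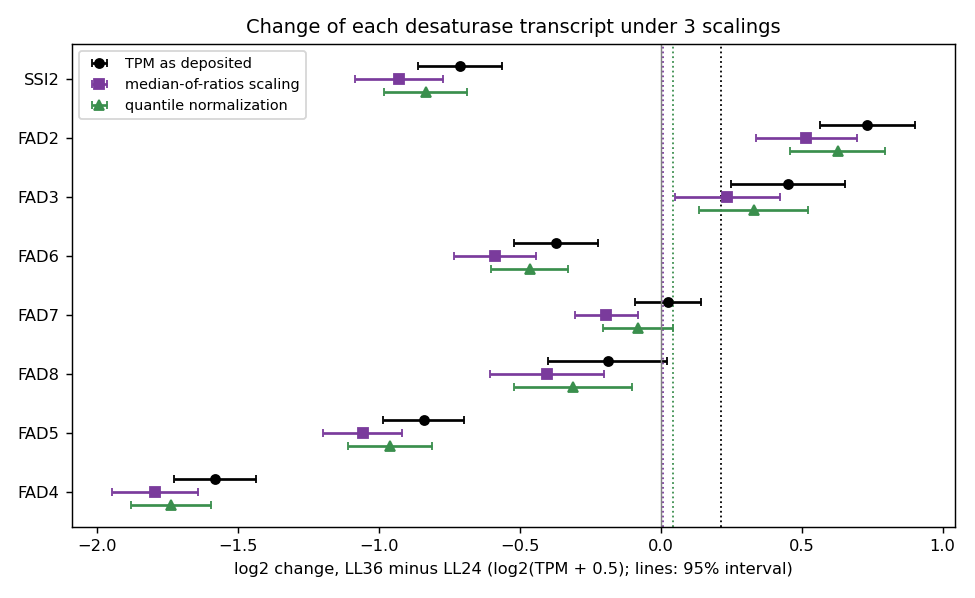
Log2 change, LL36 minus LL24, of each desaturase transcript (points) with its 95% interval (lines) for TPM as deposited, after median-of-ratios scaling and after quantile normalization. Dotted lines mark the median of all tested genes under each scaling (0.21, 0.01 and 0.04). The 3 scalings shift all members by a like amount, which moves FAD7 across 0 and leaves the order of the members the same.

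The order of the levels differed between the times. At LL36 it was FAD2, FAD6, FAD7, FAD5, FAD8, FAD3, SSI2 and FAD4, from highest to lowest. At LL24 it was FAD6, FAD7, FAD5, FAD2, SSI2, FAD8, FAD4 and FAD3. FAD2 was thus at rank 1 at LL36 and at rank 4 at LL24. Neighbours in this order whose libraries overlapped were FAD6 with FAD7, FAD8 with FAD3 and FAD3 with SSI2 at LL36, and FAD7 with FAD5 and FAD4 with FAD3 at LL24. The SDs of log2 values of the members within a time ran from 0.0447 (FAD7) to 0.121 (FAD8), against a median of 0.111 over all tested genes. FAD8 and FAD3 (0.114) lay above that median, which also covers genes of far lower level than the members.

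Summed over the 8 genes, desaturase transcripts made up 1139 ± 36.2 TPM at LL36 and 1272 ± 20.8 TPM at LL24 (SD, n = 3 each). The ER pair FAD2 and FAD3 summed to 360 ± 14.9 TPM at LL36 and 227 ± 8.46 TPM at LL24. The 6 plastid enzymes summed to 779 ± 42.7 TPM at LL36 and 1045 ± 16.0 TPM at LL24. The ER pair made up 30.2% to 33.7% of the family's sum in the LL36 libraries, against 17.4% to 18.4% in the LL24 libraries. This grouping by compartment was made with the values known and is given as a description. FAD2 alone accounted for 25.0% of the sum at LL36 and 13.5% at LL24. FAD5 had 11.4% at LL36 and 18.4% at LL24, and FAD4 1.62% at LL36 and 4.43% at LL24, whereas FAD8 kept a like share (6.92% at LL36 and 7.06% at LL24).

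**Figure D3:**
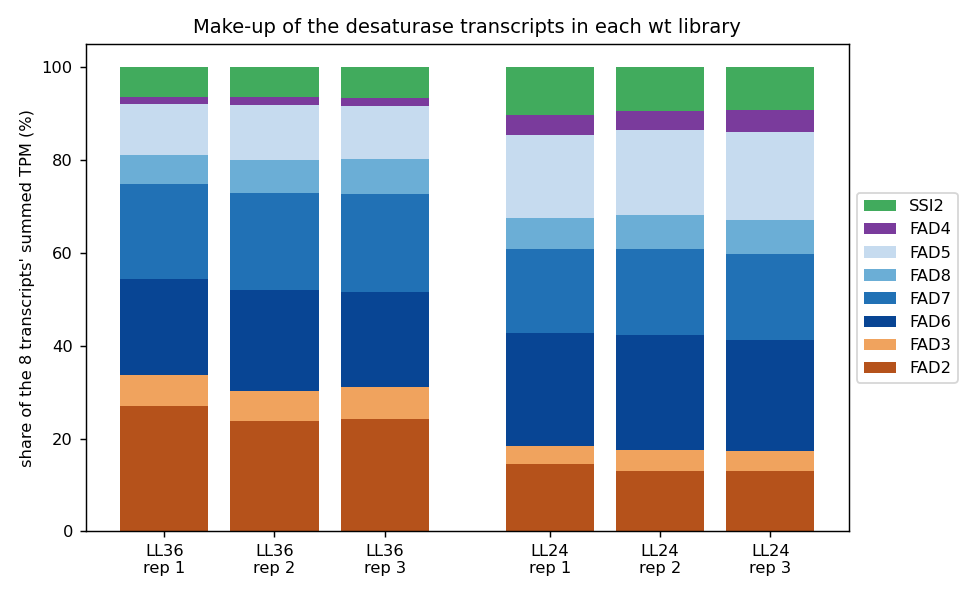
Share of each desaturase in the summed TPM of the 8 transcripts (vertical axis, percent), 1 bar per wt library, LL36 on the left and LL24 on the right. The ER enzymes FAD2 and FAD3 (orange) fill 30.2% to 33.7% of the LL36 bars and 17.4% to 18.4% of the LL24 bars.

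Ratios between members within a library do not depend on a scaling that divides all values of a library by the same factor. Median-of-ratios scaling is of this kind, but quantile normalization is not. The ratios compare enzymes of matching or successive steps, apart from FAD5/FAD4, which pairs palmitate desaturases that act on different lipids. In each library 6 ratios were computed, and with 3 against 3 libraries the two-sided exact permutation test cannot go below p = 0.1. FAD6/FAD2, the plastid over the ER oleate desaturase, was 0.762, 0.913 and 0.846 at LL36, against 1.67, 1.91 and 1.85 at LL24. FAD6 transcripts thus exceeded those of FAD2 in every LL24 library and were fewer in every LL36 library (log2 difference -1.11, exact p = 0.1, adjusted p = 0.15). FAD5/FAD4, the pair of palmitate desaturases, averaged 7.05 ± 0.184 at LL36 and 4.16 ± 0.223 at LL24 (SD; log2 difference 0.76). FAD7/FAD6, the successive plastid steps, averaged 0.997 ± 0.0338 at LL36 and 0.757 ± 0.0204 at LL24 (log2 difference 0.40). FAD8/FAD7, the close copies, averaged 0.331 ± 0.0236 at LL36 and 0.383 ± 0.0155 at LL24 (log2 difference -0.21). The libraries did not overlap for these 4 ratios, each with the smallest exact p that the design allows (0.1, adjusted p = 0.15). They overlapped for FAD3/FAD2, which averaged 0.264 ± 0.0130 at LL36 and 0.324 ± 0.0547 at LL24 (exact p = 0.3), and for FAD8/FAD6, which averaged 0.330 ± 0.0279 at LL36 and 0.290 ± 0.0177 at LL24 (exact p = 0.2).

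**Figure D4:**
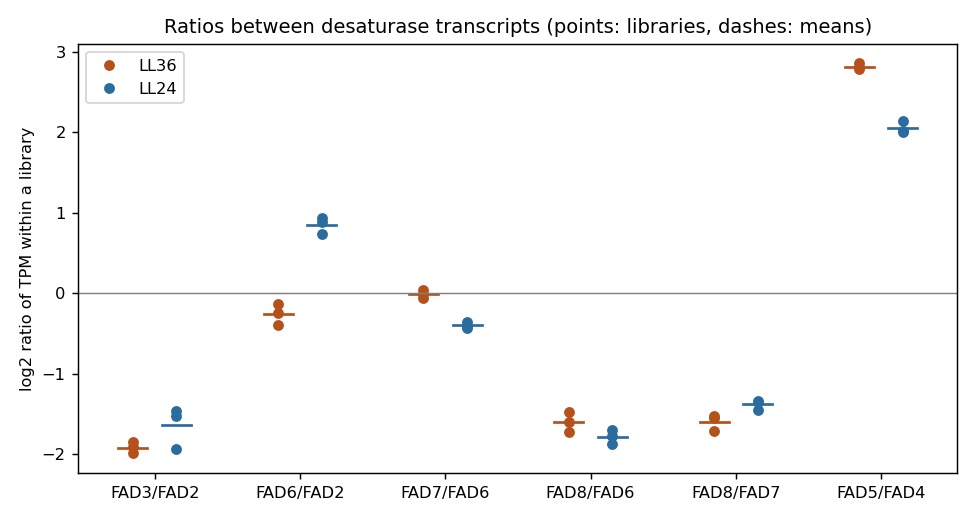
Log2 ratio of the TPM of a pair of desaturases within a library (vertical axis), for the 3 LL36 libraries (left of each pair) and the 3 LL24 libraries (right). Points are libraries and dashes means. FAD6/FAD2 lies below 0 at LL36 and above 0 at LL24, and FAD3/FAD2 and FAD8/FAD6 overlap between the times.

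To describe the surroundings of the family, 64 further genes of lipid desaturation and membrane lipid synthesis were grouped in 6 lists, of which 59 genes were tested. Of these, 25 were called higher and 8 lower, with a median change of 0.20, close to that of all tested genes (0.21), of which 41.2% were called higher and 11.2% lower. Under median-of-ratios scaling 7 were called higher and 17 lower (15.8% and 18.5% of all tested genes). Under quantile normalization 12 were called higher and 14 lower (18.7% and 15.7% of all tested genes). The calls of 15 genes, 7 higher and 8 lower, held under all 3 scalings, a count that likewise has no share over all tested genes beside it.

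Among the other acyl-ACP desaturases, the soluble relatives of SSI2, 2 of 5 tested genes were called higher and 1 lower. Over all tested genes these shares were 41.2% and 11.2%. AT3G02630, annotated as a stearoyl-ACP desaturase family protein, averaged 38.4 ± 0.989 TPM at LL36 and 14.0 ± 1.21 TPM at LL24 (log2 change 1.42, adjusted p = 2.5e-05), the opposite direction to SSI2. FTM1 averaged 3.75 ± 0.744 TPM at LL36 and 8.25 ± 3.01 TPM at LL24 (0.454 of the LL24 mean, adjusted p = 0.0206), and its call was lost without LL36 replicate 1, LL36 replicate 2 or LL24 replicate 1, with log2 changes of -0.85, -1.05 and -0.97. AT5G16240, of the same annotation as AT3G02630, changed by 0.32 (adjusted p = 0.0136) and was called neither under the other scalings nor without LL36 replicate 2 (0.28).

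Among the ADS family and the FAD4-like genes, 3 of 7 were called higher and none lower (all tested genes: 41.2% and 11.2%). ADS2, a desaturase known from cold acclimation, averaged 119 ± 2.55 TPM at LL36 and 43.8 ± 3.05 TPM at LL24 (log2 change 1.43, adjusted p = 1.4e-05). AT2G22890, which is listed with the FAD4-like genes, changed by 1.01 (adjusted p = 0.00142), opposite in sign to FAD4. ADS1 changed by 0.61 (adjusted p = 0.0140), a call lost under both other scalings. Neither of the 2 tested sphingolipid desaturases was called by limma. An unadjusted p below 0.05 was found for 1 of the 2, and both were called lower under either other scaling. Of the windows of SLD2, the lower expressed of the pair (0.974 TPM at LL36 and 1.38 TPM at LL24), 86.7% are shared with a gene on the opposite strand.

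Desaturases take electrons from cytochrome b5 in the ER and from ferredoxin in the plastid. Of 7 such electron donor genes, 2 were called higher and 3 lower (all tested genes: 41.2% and 11.2%). Under median-of-ratios scaling 0 were called higher and 4 lower (all tested genes: 15.8% and 18.5%). Under quantile normalization 1 was called higher and 3 lower (all tested genes: 18.7% and 15.7%). CB5-C, a cytochrome b5, averaged 77.8 ± 6.08 TPM at LL36 and 108 ± 11.3 TPM at LL24 (log2 change -0.47, adjusted p = 0.00659). The cytochrome b5 genes called higher, named after their values were seen, were CB5-D (216 ± 13.9 TPM at LL36 and 172 ± 10.9 TPM at LL24) and CB5-E (276 ± 14.0 TPM at LL36 and 239 ± 15.9 TPM at LL24). Neither call held after median-of-ratios scaling, whereas that of CB5-D held after quantile normalization. The ferredoxin FD1 averaged 595 ± 34.9 TPM at LL36 and 733 ± 15.2 TPM at LL24 (log2 change -0.30, adjusted p = 0.00487). CB5-B changed by -0.30 (adjusted p = 0.00741), but shares 33.6% of its windows with a gene on the opposite strand.

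In plastid fatty acid synthesis, which feeds SSI2, 8 of 18 genes were called higher and 2 lower (all tested genes: 41.2% and 11.2%). Under median-of-ratios scaling 2 were called higher and 5 lower (all tested genes: 15.8% and 18.5%). Under quantile normalization 4 were called in each direction (all tested genes: 18.7% and 15.7%). CAC3, a subunit of the acetyl-CoA carboxylase of the plastid, averaged 80.6 ± 4.69 TPM at LL36 and 57.2 ± 4.26 TPM at LL24 (log2 change 0.49, adjusted p = 0.00226). The acyl carrier protein ACP4 changed by -0.22 (adjusted p = 0.00947) and the acyl-ACP thioesterase gene AT4G13050 by -0.45 (adjusted p = 0.00135). In membrane glycerolipid synthesis and transfer, 10 of 20 genes were called higher and 2 lower, against the same 41.2% and 11.2%. The counts were again 2 higher and 5 lower under median-of-ratios scaling and 4 in each direction under quantile normalization. DGD1, which makes the galactolipid digalactosyldiacylglycerol, averaged 16.2 ± 0.959 TPM at LL36 and 32.9 ± 1.50 TPM at LL24 (0.492 of the LL24 mean, adjusted p = 7.5e-05). MGD2, a monogalactosyldiacylglycerol synthase, changed by -0.33 (adjusted p = 0.0421), and this call was lost when any 1 of the 6 libraries was left out, with changes between -0.38 and -0.24. AT3G57280, annotated as a transmembrane protein of the chloroplast envelope, changed by 0.59 (adjusted p = 0.000655).

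**Figure D5:**
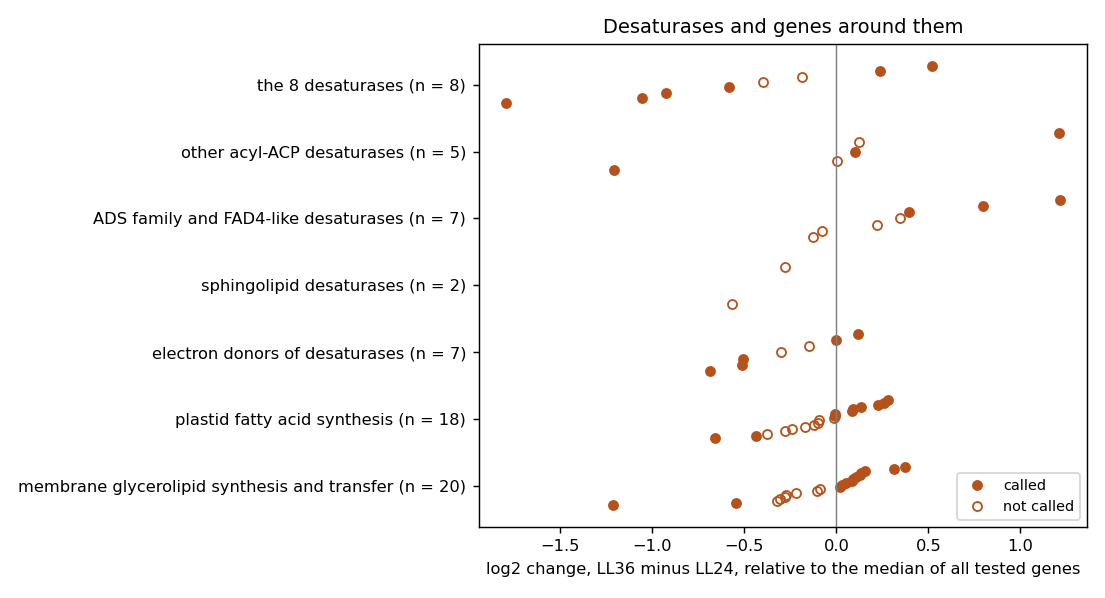
Log2 change, LL36 minus LL24, relative to the median of all tested genes (horizontal axis), for the 8 desaturases and for the tested genes of 6 surrounding lists (rows, n in parentheses). Filled points are genes called by limma and open points are not called. FAD4 is the leftmost of all points at -1.79, and the lipid synthesis lists lie mostly close to 0.

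The genes most like FAD2 and FAD4 in pattern were sought among the 14839 other tested genes with a mean of at least 5 TPM at either time, by the root mean square difference of mean-centred log2 values over the 6 libraries. AT1G55675, of no annotated function, was closest to FAD2 (0.0127), with 54.0 ± 2.34 TPM at LL36 and 32.0 ± 2.18 TPM at LL24. The zinc knuckle protein gene AT3G02820 followed (0.0331). MTM1 (0.0546) and the protein kinase gene CIPK20 (0.0548) were closest to FAD4. MTM1 had 2.54 ± 0.0472 TPM at LL36 and 8.36 ± 0.119 TPM at LL24.

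Finally, 300 bases before the start of each gene were searched on both strands for 3 motifs of light and clock regulation. None of the 8 members held the evening element AAAATATCT, the CCA1-binding site AAAAATCT or the G-box CACGTG, which were present before 2.79%, 7.94% and 7.09% of 27443 protein-coding genes. These letters are merely not in this window, and the motifs were chosen with the values known.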

How the data were processed

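Libraries were prepared by the authors with the TruSeq RNA kit v2 and sequenced with 100-nt reads. Per the study's methods, the first reads were filtered with Sickle, mapped with STAR 2.5.2a to the atRTD transcriptome of TAIR10 and quantified with Salmon 0.8.2, tximport combined transcripts by gene, and rRNA and organelle genes were removed. The values deposited by the authors are TPM per gene, not pooled. The 12 columns whose names match no label were not used, so the planned comparisons of lines and the interaction of line and time were not run.

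Genes with a mean above 1 TPM at either time were tested with limma 3.58.1 (R 4.3.3) on log2(TPM + 0.5), with a mean-variance trend, two-sided and without a block, and adjusted by Benjamini-Hochberg over all tested genes. Changes are on this scale, which understates those of low genes. The fit was checked on simulated data. Ratios were compared by an exact permutation test (scipy 1.17.1). The replicates are biological. Alternatives were pseudocounts of 0.1 and 1, no filter, a minimum of 5 TPM, quantile normalization, median-of-ratios scaling, omission of the 100 most abundant genes, no trend, a replicate block and omission of each library in turn. Up to 3 called genes of each list, those with the largest change relative to the median of all genes, were named, and for likeness the nearest 2 genes with at least 5 TPM. Names, coding sequences and shared 100-base windows came from the RefSeq TAIR10.1 annotation, in which 32811 of 33331 listed genes, all 8 members and all 64 list genes matched. Since its build name differs from that of the files, no coordinates are given. The members and lists were chosen with earlier results of these data known. A stretch of coding sequence compared between members is not reported here.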

Additional observations from a re-analysis of the deposited data

How the results depend on the processing

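Of 345 changes of named genes recomputed under an alternative, 320 kept their direction and their side of the threshold, 17 lost and 4 gained a call and 4 changed sign. The other filters, the missing trend and the replicate block leave the estimated change as it was, so only the call could move there. Genes other than the members were named because they were called with a large change. The number kept is thus partly set by these choices. All 42 recomputed ratios, which had no test under the alternatives, kept their direction, and 2 of 30 counts of calls moved. Where the libraries of a ratio did not overlap between the times, leaving out a library could not turn its direction. The number of genes called was 10107 (78.6% higher at LL36), but 6613 (46.1% higher) under median-of-ratios scaling and 6632 (54.4% higher) under quantile normalization. It was 7509 (65.2% higher) without the 100 most abundant genes and 7741 to 9571 with a library left out. All 4 changes of sign concerned FAD7, which was not called as deposited (0.02). Its change was -0.19 under median-of-ratios scaling, -0.082 under quantile normalization, -0.0876 without the 100 most abundant genes and -0.0056 to 0.052 with a library left out, the lowest without LL36 replicate 2. The cause was not tested. FAD8 gained a call without the 100 most abundant genes (-0.30). The 6 calls of members held without any 1 library.

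Residuals of same-numbered libraries correlated at r = 0.128, 0.148 and 0.0341 across genes, and every library correlated best with its own number, a hint from the data. Since 1 value was under 0.1, samples were not treated as paired by number. With the replicate block 9947 genes were called, and FAD8 was called lower (-0.19, adjusted p = 0.0412 by limma). TPM hold no depth, and counting error was not separated from the spread between libraries.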

Other observations

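A few further lipid genes kept their call under all 3 scalings without being among the 3 named per list, and were chosen after their values were seen. PGP1, which makes the precursor of phosphatidylglycerol, the lipid on which FAD4 acts, averaged 35.5 TPM at LL36 and 24.6 TPM at LL24 and was called higher, with a log2 change of 0.31 relative to the median of all tested genes. CAC2, another subunit of the plastid acetyl-CoA carboxylase, averaged 124 TPM at LL36 and 91.4 TPM at LL24 and was called higher (0.22 relative to that median).

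Of the 7 transcripts that react to handling and cold, 2 were called higher, 2 lower and 3 neither. DREB1A averaged 2.67 TPM at LL36 and 0.258 TPM at LL24 and was called higher (limma adjusted p = 0.000125). CBF1 averaged 1.10 TPM at LL36 and 0.165 TPM at LL24. It was called higher as deposited (adjusted p = 0.0310) but not under the other 2 scalings. CBF2, of the same family, averaged 1.33 TPM at LL36 and 3.00 TPM at LL24 and was called lower under the other 2 scalings but not as deposited (adjusted p = 0.0514). The touch-induced transcripts TCH2 (47.6 TPM at LL36 and 110.0 TPM at LL24) and TCH4 (33.7 TPM at LL36 and 80.0 TPM at LL24) were called lower (adjusted p = 0.0107 and 0.0192). RHL41 and TCH3 were not called (adjusted p = 0.109 and 0.183).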
